A study of Rattus norvegicus with 4 samples.

Results

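Mitochondrial fatty acid oxidation was described through 10 genes, Acadl, Acadm, Acads, Acadvl, Hadha, Hadhb, Cpt1a, Cpt2, Etfdh and Decr1, in rat cochlear lateral wall, after the inner ear had been infused with 3-nitropropionic acid (3-NP) or saline. The genes were listed by symbol, and every probe set annotated to one of them was taken, a probe set being the group of probes that the array reads for a transcript. Of 10411 named genes on the array used at day 1, the 10 members had 11 probe sets. Of 5667 named genes on the array used at day 3, 1 member, Hadha, was represented, by 2 probe sets.

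3-NP inhibits succinate dehydrogenase, complex II of the respiratory chain, and the labels call the preparation an acute mitochondrial dysfunction model. The animals, female rats of the Sprague-Dawley strain aged 8 to 10 weeks and weighing 180 to 210 g, received 300 mM 3-NP in saline, or only saline, in the left round window niche, and in all of them the right cochlea was destroyed by surgery. Tissue was taken 1 or 3 days later, which gave 4 groups with 1 array each. How many rats an array stands for is not stated in the labels. Since no group had a replicate, no p-value was computed and no difference below has been set against variation between animals.

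The lateral wall holds the fibrocytes of the spiral ligament and the stria vascularis, and the labels place the tissue both in the upper basal turn and in the second turn, the latter without the stria. Signals of fibrocyte genes in the saline array of day 1 reached 4109 for Slc12a2, a sodium-potassium-chloride cotransporter gene, and 3139 for Gjb6, a connexin gene. Others were lower, with 73.0 for Slc26a4 and 23.7 for S100a4, which was under that array's median of 44.9. Coch, the cochlin gene, had 6548 in saline at day 3. The stria genes Kcne1 and Kcnq1, which encode potassium channel subunits, had 1006 and 157 in saline at day 1. Kcnj10, another stria potassium channel gene, had 11.6 in saline and 13.3 in 3-NP at day 1. These 2 signals were under the floors of their arrays, 17.1 and 22.0, below which signals were not told apart. Transcripts of some stria genes were thus present, while Kcnj10 was not measurable. In whole tissue, fewer cells of a type and less RNA per cell cannot be told apart.

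Fatty acids are activated to acyl-CoA in the cytosol, carried into mitochondria as acylcarnitines, and shortened there in repeated rounds of dehydrogenation, hydration, a further dehydrogenation and thiolysis. The acyl-CoA dehydrogenases of the opening step hand their electrons to the electron transfer flavoprotein, and the oxidoreductase encoded by Etfdh passes them to the ubiquinone pool, which complex II also feeds. Spiral ligament fibrocytes and the stria are rich in mitochondria, and their ion transport has a high energy demand.

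Promoter windows of 300 bases, from 250 before to 50 after the gene start, were taken from a table of RefSeq promoter windows on the GRCr8 rat assembly for 8 of the 10 members; windows of Acadl and Decr1 were not used here. Hadha and Hadhb encode the subunits of 1 enzyme and are shown because their windows overlap. The genes run in opposite directions from starts 301 bases apart, and 200 bases, in capitals below, lie in both windows. The Hadha window is chr6:31907551-31907850 on the plus strand and the Hadhb window chr6:31907451-31907750 on the minus strand, each printed 5′ to 3′ on its own strand.
Hadha: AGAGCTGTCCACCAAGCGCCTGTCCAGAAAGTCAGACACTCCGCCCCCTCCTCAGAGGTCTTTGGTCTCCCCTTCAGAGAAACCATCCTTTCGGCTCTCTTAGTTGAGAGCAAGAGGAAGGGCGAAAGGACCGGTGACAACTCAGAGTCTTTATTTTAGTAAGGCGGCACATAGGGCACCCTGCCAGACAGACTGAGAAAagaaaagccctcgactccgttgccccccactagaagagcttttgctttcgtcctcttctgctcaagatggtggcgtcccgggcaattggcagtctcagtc
Hadhb: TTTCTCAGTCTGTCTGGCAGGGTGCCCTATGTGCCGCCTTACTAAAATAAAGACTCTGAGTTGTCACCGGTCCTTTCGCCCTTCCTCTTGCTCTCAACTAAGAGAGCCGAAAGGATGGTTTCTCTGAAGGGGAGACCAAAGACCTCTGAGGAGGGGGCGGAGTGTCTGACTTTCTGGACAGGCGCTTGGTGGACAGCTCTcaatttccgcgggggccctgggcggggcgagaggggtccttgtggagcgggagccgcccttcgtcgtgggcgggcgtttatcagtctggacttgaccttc

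Etfdh and Acads are shown as the members with the lowest and the highest ratio of 3-NP over saline at day 1. The Etfdh window is chr2:167060709-167061008 on the minus strand and the Acads window chr12:47154083-47154382 on the plus strand. Capitals mark matches, on either strand, to GGGCGG, the GC box.
Etfdh: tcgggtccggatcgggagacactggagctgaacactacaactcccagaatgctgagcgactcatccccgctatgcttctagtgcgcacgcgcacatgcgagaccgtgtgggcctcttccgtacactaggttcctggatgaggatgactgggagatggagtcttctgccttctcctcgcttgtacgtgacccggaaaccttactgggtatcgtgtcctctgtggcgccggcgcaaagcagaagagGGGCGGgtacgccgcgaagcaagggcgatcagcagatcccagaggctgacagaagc
Acads: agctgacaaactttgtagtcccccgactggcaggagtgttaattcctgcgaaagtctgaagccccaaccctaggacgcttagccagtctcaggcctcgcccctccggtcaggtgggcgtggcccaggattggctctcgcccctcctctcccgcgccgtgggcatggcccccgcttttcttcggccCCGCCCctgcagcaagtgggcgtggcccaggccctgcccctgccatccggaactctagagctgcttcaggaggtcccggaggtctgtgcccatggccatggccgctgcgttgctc

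GGGCGG was found on either strand in 6 of the 8 windows (Etfdh, Acadm, Cpt2, Hadhb, Hadha and Acads), against 33.1% of all 33469 windows in the table. AGGTCA, the core letters bound by nuclear receptors such as the PPAR family, was found on either strand in 2 of the 8, Hadhb and Acadvl, against 16.2% of all windows. A direct repeat of AGGTCA with 1 base between the copies, which contains AGGTCA, was found in 0 of the 8 and in 0.0538% of all windows. Windows of 7 of the 8 members had a GC content above the median of 51.7% over all windows, with a range over the 8 of 48.3% to 66.7%. These letter matches describe the windows only.

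At day 1, 9 of the 10 members had a lower signal in 3-NP than in saline relative to the median gene, and the differences were small. The median relative log2 ratio of the members was -0.57, against 0 for all 6533 measured genes by construction, and the members ranged from -1.28 for Etfdh to 0.04 for Acads. Only Etfdh was at least 2-fold apart, on the lower side, so 1 of 10 members was at least 2-fold lower against 6.47% of all measured genes. On the higher side the count was 0 of 10 against 7.76%. The member count past 2-fold was thus near the background, while 6 of 10 members lay in the 25% of genes with the lowest ratios.

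The signals are linear intensities per probe set. At day 1 the measured genes had a median log2 ratio (3-NP over saline) of 0.44, and a relative log2 ratio is a gene's log2 ratio minus that median. As deposited, the signals of 6 members were lower in 3-NP and those of 4 were higher (Acads, Hadha, Cpt1a and Acadvl). Their median log2 ratio was -0.13. Of all 6533 measured genes, 1509 had a log2 ratio below 0 as deposited. As deposited, 0 of 10 members were 2-fold lower and 0 of 10 were 2-fold higher, against 2.62% and 17.9% of all measured genes. That centring takes the median gene as equal on the arrays. The size of each member's ratio therefore rests on that centring, as does its side of 0 for Cpt1a, Hadha and Acadvl. The place of the members relative to the median gene does not, since the same value is taken off every gene. The SD of 1 probe set's log2 ratio, from 744 genes with several probe sets, was 0.35 at day 1. It covers differences between probe sets on the same pair of arrays, not between animals or dissections. Of the 10 members, 7 lay further than 1 such SD below the median gene and 3 of these further than 2 SD (Etfdh, Decr1 and Acadl).

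Entry into the mitochondrion showed small differences among the members. Cpt1a encodes the liver-type carnitine palmitoyltransferase of the outer membrane, the regulated step of entry. Its brighter probe set gave 161 in saline against 179 in 3-NP (relative log2 ratio -0.28). The other Cpt1a probe set had 72.9 and 75.5 (relative log2 ratio -0.39). Both probe sets were thus slightly higher in 3-NP as deposited and slightly lower relative to the median gene. Cpt2, whose product turns acylcarnitine back into acyl-CoA inside the mitochondrion, gave 68.7 in saline against 64.4 in 3-NP (relative log2 ratio -0.53).

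The 4 acyl-CoA dehydrogenases, named for the chain length they prefer, did not order by chain length in their ratios. Acadvl, the very long-chain enzyme, gave 224 in saline against 237 in 3-NP (relative log2 ratio -0.35). Acadl, the long-chain enzyme, had 200 and 155 (relative log2 ratio -0.81). Acadm, the medium-chain enzyme, had 372 and 323 (relative log2 ratio -0.64). Acads, the short-chain enzyme, had 103 and 144 (relative log2 ratio 0.04). Only Acads was on the higher side of the median gene, by much less than the SD between probe sets. Among all measured genes, 9.87% had a lower ratio than Acadl, 14.5% than Acadm, 27.4% than Acadvl and 52.8% than Acads.

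Hadha and Hadhb encode the subunits of the trifunctional protein, which carries out the later steps of the cycle for long chains at the inner membrane. Hadha gave 295 in saline against 332 in 3-NP (relative log2 ratio -0.27). Hadhb had 597 and 530 (relative log2 ratio -0.61). The 2 subunit genes, whose promoter windows overlap, were both below the median gene and differed from each other by less than 1 SD between probe sets. As deposited they pointed in opposite directions, with log2 ratios of 0.17 and -0.17.

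The lowest ratios belonged to an accessory enzyme and to the electron exit. Decr1, the 2,4-dienoyl-CoA reductase needed for unsaturated fatty acids, gave 231 in saline against 162 in 3-NP (relative log2 ratio -0.95). Etfdh gave 108 in saline against 59.9 in 3-NP (relative log2 ratio -1.28), a 2.44-fold lower value than that of the median gene. As deposited its log2 ratio was -0.85, under 2-fold. Of all measured genes, 3.60% had a lower ratio than Etfdh and 7.16% a lower ratio than Decr1. The 3-NP signal of Etfdh lay just under that array's median of 60.7, and all 11 probe sets of the members were above the 30th percentile in both arrays of day 1, the level below which signals were not told apart.

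**Figure D1:**
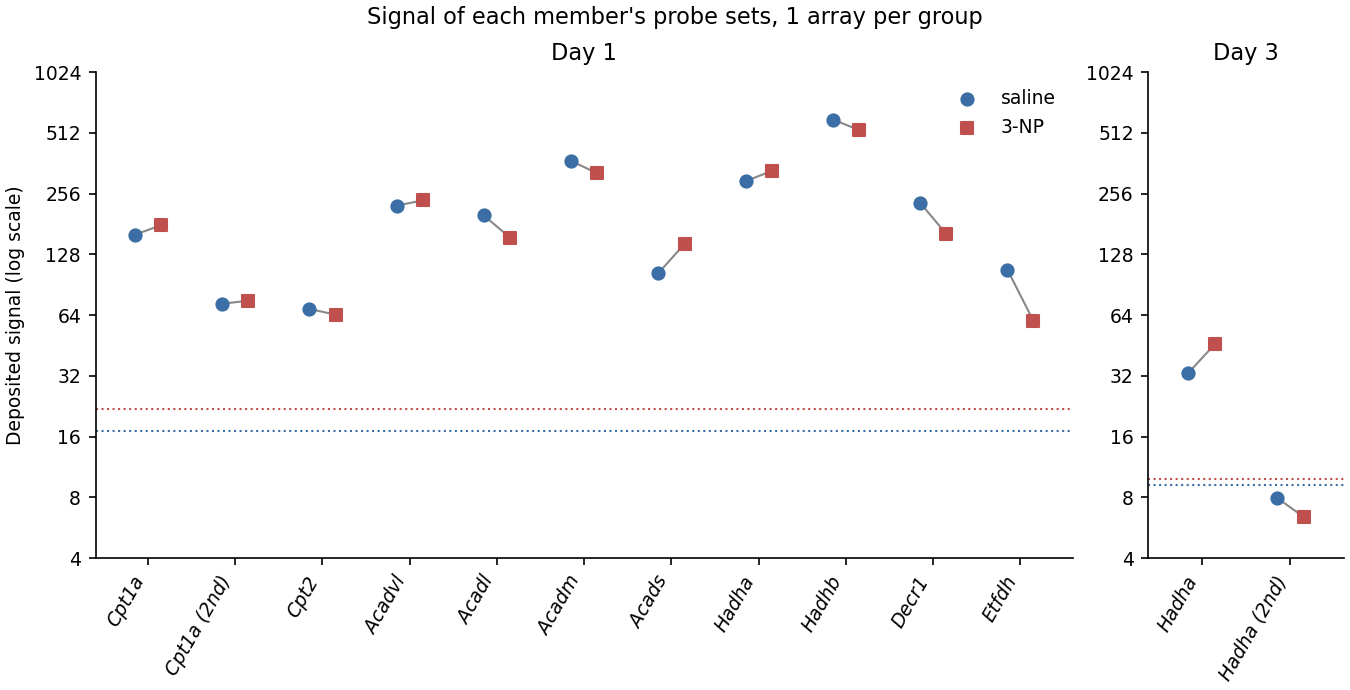
Deposited signal of each probe set of the 10 genes on a log scale, with circles for saline and squares for 3-NP, at day 1 (left) and day 3 (right); each point is 1 array, and dotted lines mark the 30th percentile of the saline (blue) and 3-NP (red) arrays. Etfdh went from 108 in saline to 59.9 in 3-NP, Acads from 103 to 144, and the dimmer Hadha probe set of day 3 lay under both dotted lines.

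The other genes of mitochondrial fatty acid and acyl-CoA oxidation were also mostly below the median gene, and the difference of this list from the members was not tested. In this list of 23 genes, 20 were on the day 1 array and 18 were measured, that is, had a signal at or above the median of at least 1 of the 2 arrays. Of these, 7 were at least 2-fold lower relative to the median gene and 0 were higher, with a median relative log2 ratio of -0.81. As deposited, 0 were 2-fold lower and 1 was higher, and 14 of 18 had a log2 ratio below 0, with a median of -0.37. Of all measured genes, 6.47% were at least 2-fold lower and 7.76% higher relative to the median gene. As deposited, the shares were 2.62% and 17.9%. These shares are the background for each 2-fold count of day 1 below.

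Among the matrix enzymes that carry the cycle past its opening step for shorter chains, Echs1, Hadh and Acaa2 were past 2-fold on the lower side. Echs1, the short-chain enoyl-CoA hydratase, gave 181 in saline against 111 in 3-NP (relative log2 ratio -1.14). Hadh, the short-chain hydroxyacyl-CoA dehydrogenase, had 238 and 158 (-1.03), and Acaa2, the thiolase, had 187 and 111 (-1.19). The call of Hadh was lost when ratios were centred on all probe sets, and as deposited 0 of these 3 genes were 2-fold lower. Hadha and Hadhb, which do this work for long chains, were at -0.27 and -0.61, and the difference between these groups of enzymes was not tested.

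The enoyl-CoA isomerase genes, which like Decr1 serve unsaturated fatty acids, were at -1.12 for Eci1 and -0.89 for Eci2. A dimmer Eci1 probe set and a dimmer Hadh probe set were under the 30th percentile in both arrays and gave no ratio. The subunits of the electron transfer flavoprotein, which stands between the dehydrogenases and Etfdh, were closer to the median gene. Etfa gave 361 in saline against 314 in 3-NP (relative log2 ratio -0.64), and Etfb had 374 and 340 (relative log2 ratio -0.57).

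Genes for propionyl-CoA and branched-chain acyl-CoA oxidation, which feed from odd-chain fatty acids and amino acids, were also mostly below the median gene. Pcca, a subunit of propionyl-CoA carboxylase, was at -1.38 and Pccb, the other subunit, was at -0.51. Mcee, the methylmalonyl-CoA epimerase, was at -1.21 and Acadsb, the short and branched-chain dehydrogenase, at -1.26. Gcdh, the glutaryl-CoA dehydrogenase of lysine breakdown, was at -0.80, Ivd, the isovaleryl-CoA dehydrogenase, at -0.48 and Auh, a hydratase of leucine breakdown, at -0.35. Nudt7, a coenzyme A hydrolase that acts in peroxisomes, was at -0.81. Above the median gene lay Acad9, a complex I assembly factor with dehydrogenase activity (0.01), Hsd17b10, a multifunctional matrix dehydrogenase (0.02), and Hsd17b8, which takes part in mitochondrial fatty acid synthesis (0.76). Hsd17b8, with 101 in saline and 232 in 3-NP, was the gene that was 2-fold higher as deposited.

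Activation and carnitine genes went both ways. Of 13 in the list 10 were measured at day 1, and 2 passed 2-fold on the lower side and 0 on the higher relative to the median gene, with a median of -0.51. As deposited, 1 was lower and 2 were higher, with a median of -0.07. Acot13, a mitochondrial acyl-CoA thioesterase, gave 143 in saline against 66.6 in 3-NP (relative log2 ratio -1.54), and the acyl-CoA synthetase gene Acsl3 had 456 and 279 (-1.15). Slc25a20, the carnitine-acylcarnitine carrier of the inner membrane, was at -0.94, Crat, carnitine acetyltransferase, at -0.53 and Slc22a5, the plasma membrane carnitine transporter, at -0.49. Acsl1 was at -0.72 by its brighter probe set and at -0.42 by the other.

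The synthetase genes Acsl4 and Acsl5 lay on the other side. Acsl4, which prefers arachidonic acid, gave 132 in saline against 272 in 3-NP (relative log2 ratio 0.60). Acsl5 had 126 and 308 (relative log2 ratio 0.85). Both were above 2-fold as deposited and under it relative to the median gene. The muscle-type transferase gene Cpt1b was at -0.08 and the fatty acid transporter gene Slc27a1 at 0.21.

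**Figure D2:**
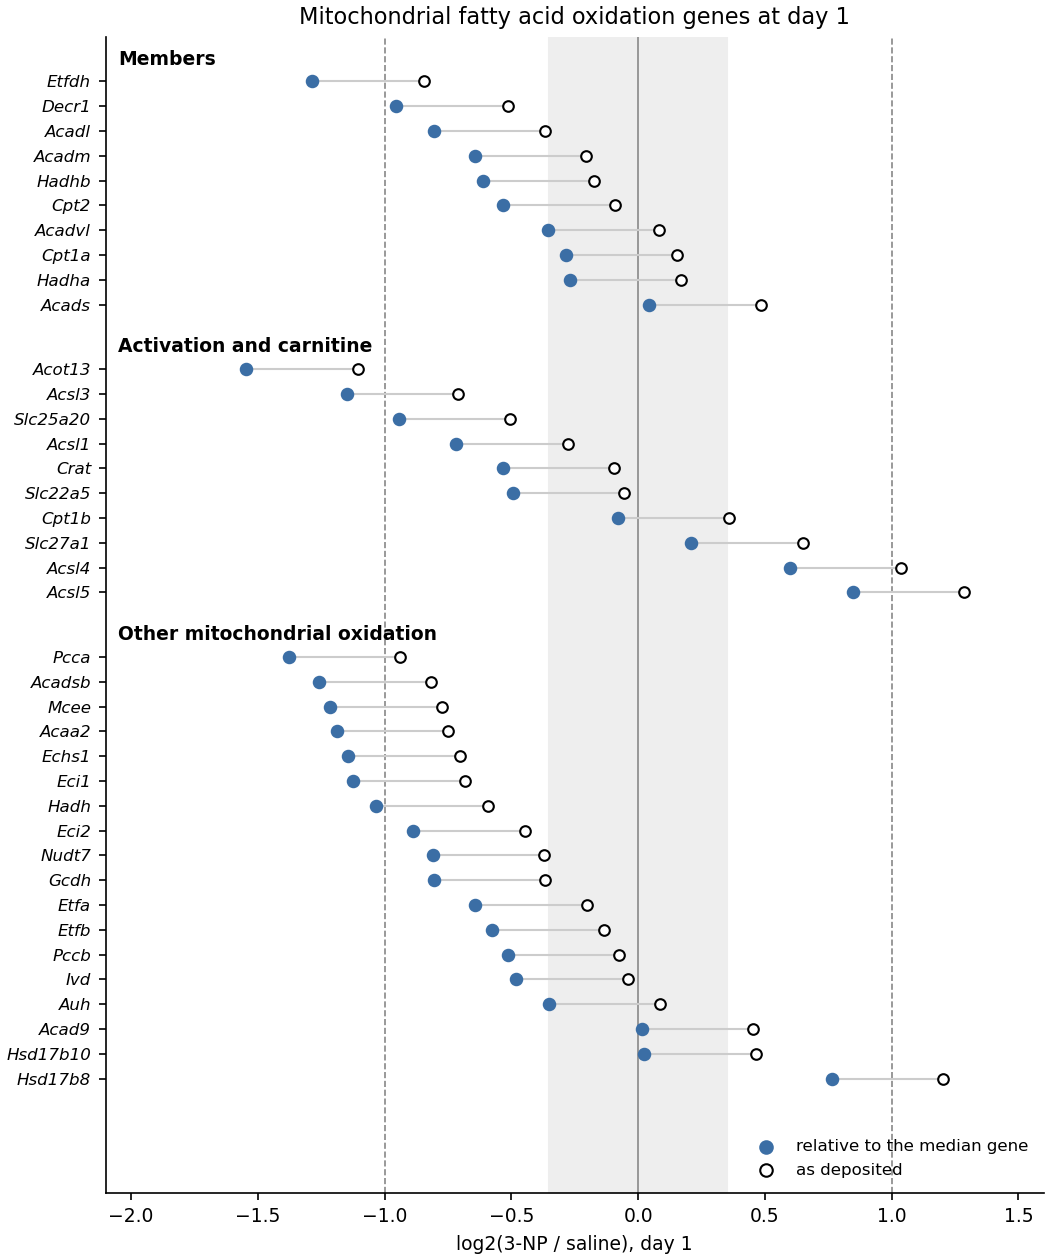
Log2 ratio of 3-NP over saline at day 1 for each measured gene of mitochondrial fatty acid oxidation, from 1 array per group, with filled points relative to the median gene and open points as deposited; the grey band is 1 SD between probe sets of the same gene (0.35) on either side of 0, and dashed lines mark 2-fold. Filled points of 9 of the 10 members lie left of 0, from -1.28 for Etfdh to -0.27 for Hadha, and those of Acsl4, Acsl5 and Hsd17b8 lie right of the band.

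Neighbouring mitochondrial pathways were set beside the members without a test of the difference. Of 21 measured genes of the tricarboxylic acid cycle and pyruvate oxidation, 0 were 2-fold apart and the median relative log2 ratio was -0.22 (0.22 as deposited). Of 70 measured oxidative phosphorylation genes, 2 were 2-fold lower and 0 higher (as deposited, 0 of either), and their median was -0.35 (0.09 as deposited). Below the median gene lay 9 of 10 members, 15 of 18 other mitochondrial oxidation genes, 13 of 21 tricarboxylic acid cycle genes and 62 of 70 oxidative phosphorylation genes. As deposited, log2 ratios below 0 were found for 6 of 10, 14 of 18, 5 of 21 and 30 of 70. Over all measured genes, 1509 of 6533 were below 0 as deposited. The 2 lower oxidative phosphorylation genes were Cox7a1, a subunit of complex IV, at -1.28 and Ndufab1, the mitochondrial acyl carrier protein and complex I subunit, at the 2-fold line. The citrate synthase gene Cs was at 0.16, and its other probe sets at 0.22 and 0.10. The subunits of succinate dehydrogenase, the target of 3-NP, were at -0.34 for Sdha, -0.35 for Sdhb, -0.31 for Sdhc and -0.81 for Sdhd (-0.46 by another probe set). Etfdh, which like complex II reduces ubiquinone, was below all 4.

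Peroxisomes shorten very long and branched chains by a parallel cycle. Of 10 measured genes in a list of peroxisomal enzymes, not all of them steps of that cycle, 3 passed 2-fold on the lower side and 0 on the higher. Their median was -0.79, and as deposited the counts were 1 and 0. Pecr, the trans-2-enoyl-CoA reductase, gave 265 in saline against 109 in 3-NP (relative log2 ratio -1.72). Amacr, the racemase for branched chains, was at -1.10, and Crot, the carnitine octanoyltransferase that exports shortened chains, at -1.08 and -1.38 by its 2 probe sets. Ketone body enzymes had 4 measured genes, of which 2 were 2-fold lower and 0 higher, with a median of -0.96, and as deposited 1 and 0. Oxct1, which activates ketone bodies for oxidation, gave 403 in saline against 146 in 3-NP (relative log2 ratio -1.91), and Bdh2, a hydroxybutyrate dehydrogenase, was at -1.03. The opposite pathway, fatty acid synthesis and desaturation, had 2 of 12 measured genes 2-fold lower and 0 higher, with a median of -0.25, and as deposited 0 and 0. Its lowest genes were Scd, a stearoyl-CoA desaturase, at -1.27 and the lipogenic regulator gene Thrsp at -1.13.

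**Figure D3:**
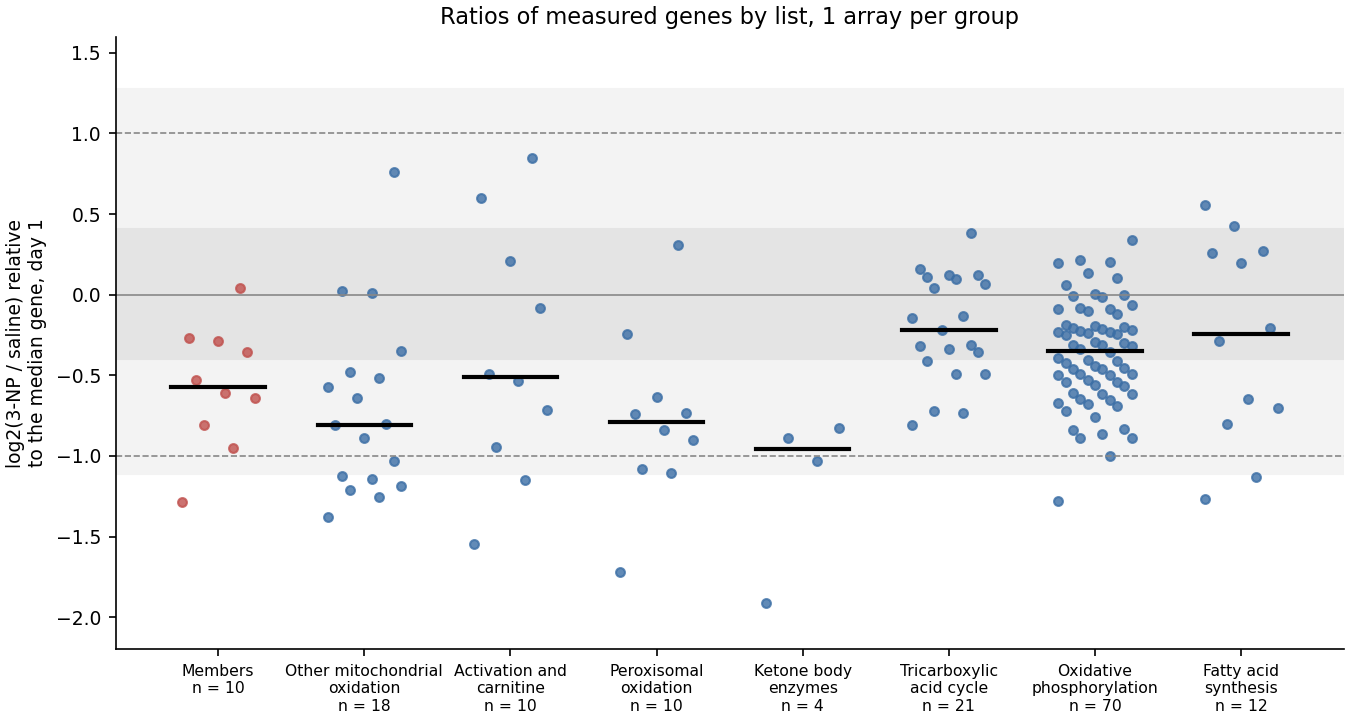
Relative log2 ratio at day 1 of each measured gene in 8 lists, 1 point per gene from 1 array per group, with a bar at each list's median; the dark band holds the middle of all measured genes (25th to 75th percentile, -0.40 to 0.41), the light band their 5th to 95th percentile (-1.11 to 1.28), and dashed lines mark 2-fold. Medians were -0.57 for the members, -0.81 for the other mitochondrial genes, -0.22 for the tricarboxylic acid cycle and -0.35 for oxidative phosphorylation.

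Fatty acid oxidation genes are switched on by PPAR nuclear receptors with the coactivator PGC-1 alpha, encoded by Ppargc1a, and entry is restrained by malonyl-CoA, which the kinase AMPK keeps low. Of 24 regulators, 12 were measured at day 1, with 1 at least 2-fold lower, 0 higher and a median of -0.10 (1 lower, 1 higher and 0.34 as deposited). That gene was Prkaa2, an AMPK catalytic subunit, with 90.7 in saline and 37.7 in 3-NP (relative log2 ratio -1.70). Prkaa1, the other catalytic subunit, was at -0.31. Ppara and Ppargc1a were under the 30th percentile in both arrays of day 1 and gave no ratio.

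PPAR targets were split. Of 20 in that list, which holds 3 of the members, 11 were measured, with 2 past 2-fold on the higher side and 0 on the lower (3 and 0 as deposited) and a median of -0.34 relative to the median gene but 0.10 as deposited. The higher genes were Plin2, a lipid droplet coat gene, with 92.9 in saline and 371 in 3-NP (relative log2 ratio 1.56, and 1.42 by another probe set), and Angptl4, a lipoprotein lipase inhibitor gene, with 34.2 and 125 (1.43). Pdk4, whose product blocks pyruvate oxidation, was at 0.68, with 60.1 and 131. Below the median gene lay 8 of the 11. Among them were Slc25a20, Acadl, Acsl1, Acadm, Cpt1a and Cpt1b, from -0.94 for Slc25a20 to -0.08 for Cpt1b. The others were Fabp3 (-0.51) and Ucp2 (-0.34), which are not enzymes or carriers of entry and oxidation. As deposited, 5 of the 11 were below 0, and Cpt1a (0.15) and Cpt1b (0.36) were above it.

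Markers of several cell types also differed between the arrays of day 1. Fibrocyte markers summed to 11418 in saline and 7048 in 3-NP, and 6 of the 12 measured were 2-fold or more lower and 2 higher (4 and 4 as deposited). Among these, Car3, a carbonic anhydrase gene, was at -2.57, Gjb6 at -2.48 and Slc12a2 at -1.01 on the lower side, and the water channel gene Aqp1 was at 1.46 and S100a4 at 1.40 on the higher side. Of 7 stria and melanocyte markers 5 were 2-fold lower and 0 higher (as deposited, 2 and 0), with sums of 4552 and 2711, led by Lrp2 (-1.69), Kcne1 (-1.52) and Kcnq1 (-1.42). Bone and cartilage had 8 measured markers, and 7 were 2-fold lower and 0 higher (as deposited, 4 and 0), with sums of 1677 and 681, led by Omd (-2.45), Col9a2 and Col11a2 (both -2.44). Macrophage markers, with sums of 1753 and 3471, had 2 of 8 higher, Lgals3 (2.47) and Cd14 (1.54), and 0 lower. Of these sums Lyz2 gave 1183 and 1876, at a relative log2 ratio of 0.23, and the median of the 8 markers was 0.28. Aif1, Itgam and Ptprc were under the 30th percentile in both arrays. Endothelial and mural markers, with sums of 278 and 677, had 3 of 5 higher and 1 lower (4 and 0 as deposited), and with a filter at the 60th percentile the higher count was 1. Those 3 were Kdr, at 1.61, and Mcam and Plvap, whose saline signals were under the 30th percentile. The summed signal of the 10 members was 2359 in saline and 2186 in 3-NP, or 0.93 times the saline sum. These sums, and those of muscle and adipocyte markers below, are of deposited signals. Over all measured genes the deposited sum in 3-NP was 1.37 times that in saline. The part of the marker shifts in the members' ratios was not tested.

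Skeletal muscle and brown fat are both rich in fatty acid oxidation, and their markers were read as well. Of 14 muscle markers on the array of day 1, 5 were measured, and of these 0 were 2-fold apart (2 higher as deposited). Their sums were 1106 in saline and 1761 in 3-NP, of which Pvalb gave 602 and 937. Above the median gene lay 5 of 5. The part of muscle RNA in the members' ratios was not tested. Ckm, muscle creatine kinase, was below the median signal in both arrays, with 27.2 and 22.6. Ucp1, which defines brown fat, was under the 30th percentile in both, with 13.8 and 15.3. Of 3 measured adipocyte markers 1 was lower, Lpl, the lipoprotein lipase gene, at -1.36, and 0 higher, with sums of 327 and 310. Plin1 and Fabp4, defining genes of fat cells, were under the 30th percentile in both arrays.

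At day 3 the array design was another one, and Hadha was the only member on it. Its brighter probe set gave 33.1 in saline against 46.0 in 3-NP (relative log2 ratio 0.38), within 1 SD between probe sets (0.47, from 805 genes). The other Hadha probe set had 7.96 and 6.39, under the 30th percentile of both arrays, and gave no ratio. Thus 0 of 1 member was 2-fold lower and 0 of 1 higher, against 8.18% and 9.21% of 3972 measured genes. The median log2 ratio across genes was 0.10 on that day.

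Other oxidation genes on the day 3 array were few. Of 4 in the mitochondrial oxidation list 3 were measured, all below the median gene, with 1 past 2-fold on the lower side, also as deposited, and 0 on the higher. Mmut, methylmalonyl-CoA mutase, which follows Mcee in propionyl-CoA breakdown, gave 113 in saline against 50.9 in 3-NP (relative log2 ratio -1.25). Its other probe sets were at -0.65 and -1.11. Gcdh was at -0.79 and, by a dimmer probe set, at -1.34, and Acad11, an acyl-CoA dehydrogenase of long chains, was at -0.40. In the activation and carnitine list Acot2, a mitochondrial thioesterase, was at -0.51 and Acsl5 at 0.09.

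Among regulators at day 3, 1 of 6 measured genes was 2-fold lower and 1 was 2-fold higher, also as deposited, and the median was 0.04. Ppargc1a gave 249 in saline against 122 in 3-NP (relative log2 ratio -1.13), and -1.40 by its other probe set. Ppargc1b, which encodes the related coactivator PGC-1 beta, had 15.6 and 35.2 (relative log2 ratio 1.07). The saline signal of Ppargc1b was below that array's median of 18.7. Of 3 measured PPAR targets 0 were 2-fold apart, with Pdk4 at 0.76. The other lists were thinly measured at day 3: of 5 oxidative phosphorylation genes 2 were 2-fold lower (Ndufa12 at -1.76 and Atp5f1c at -1.10) and 1 higher (Atp5po at 1.08), with 1 lower and 1 higher as deposited, and of 3 fatty acid synthesis genes 1 was lower, Scd2. Single measured genes of the peroxisomal, ketone body and tricarboxylic acid cycle lists were under 2-fold.

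Markers of the lateral wall were few at day 3. Of 3 fibrocyte markers 1 was 2-fold lower (Tbx18 at -1.19, with Coch at -0.31, but 0.16 after quantile normalization), and of 5 stria and melanocyte markers 3 were lower, among them Bsnd (-1.93) and Tyr (-1.85), and 1 was higher, Tyrp1, whose other probe set was at 0.69. Both measured macrophage markers, Cd163 (-1.07) and Mrc1 (-1.08), were 2-fold lower, and as deposited neither was. Of 2 bone, 1 adipocyte and 2 endothelial and mural markers 0 were 2-fold apart, and 0 muscle markers were measured. The part of these shifts in the ratio of Hadha was not tested.

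**Figure D4:**
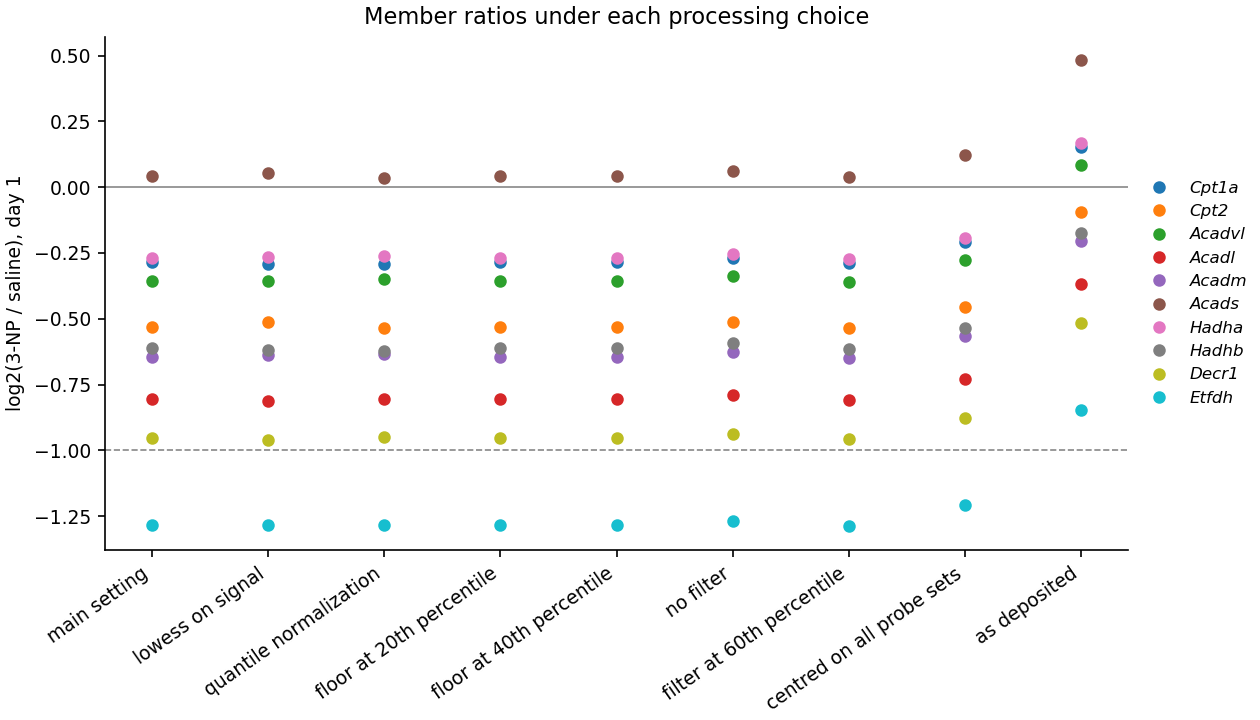
Log2 ratio of 3-NP over saline at day 1 for each member (1 array per group, brighter probe set for Cpt1a) under the main setting and 8 other processing choices, 1 colour per gene. Etfdh lies below the dashed 2-fold line except as deposited, where it is at -0.85, and Cpt1a, Hadha and Acadvl lie below 0 except as deposited, where they are at 0.15, 0.17 and 0.08.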

How the data were processed

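Biotin-labelled cRNA from 6 µg of total RNA was put on Affymetrix arrays, as the labels' protocols state. The values deposited by the authors are linear signal intensities per probe set. The submitters' processing notes name MAS5, and the sources used here give neither its scaling target nor detection calls. The design had 1 array per group, and day and array design coincide, so the days were not compared directly. Probe sets were named from the platform annotation (12783 of 15866 had 1 symbol at day 1, 7564 of 15276 at day 3), updated through gene identifiers to RefSeq GRCr8. Signals under each array's 30th percentile (17.1 and 22.0 at day 1, 9.22 and 9.85 at day 3, for saline and 3-NP) were raised to it, and log2 ratios were taken. Probe sets reaching the 50th percentile in at least 1 array of a pair were kept, the brightest stood for its gene, and ratios were centred on the median gene. A log2 ratio of 1 in size, or 2-fold, was the call. Text names all members and measured carnitine and mitochondrial oxidation genes. In other lists it names up to 3 genes past 2-fold or else the furthest, and set markers. Prkaa1, Pdk4, Ppara, Ppargc1a at day 1, Plin1, Fabp4, Fabp3, Ucp2, Pvalb and Kcnj10 were added after their values were seen. So were Slc26a4, S100a4, Lyz2, Aif1, Itgam, Ptprc and the genes measured on both days. Members, lists and alternatives were chosen with earlier results of these data known. The steps, in Python 3.11.15 with pandas 2.3.3 and statsmodels 0.14.6, were tested on simulated data. The alternatives were ratios as deposited, quantile and lowess scaling, other floors and filters, the mean of probe sets, and centring on all probe sets.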

Additional observations from a re-analysis of the deposited data

Results flagged for a closer look

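Hadha, the 1 member on both array designs, lay below the median gene at day 1, with a relative log2 ratio of -0.27, and above it at day 3, with 0.38. The difference between the days was not tested, and each value comes from 1 array per group and from different probe sets. As deposited both log2 ratios were above 0, at 0.17 and 0.48.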

How the results depend on the processing

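With 1 array per group, no result has a replicate error, and leaving out an array leaves no comparison. The members' median at day 1 lay between -0.58 and -0.49 under the 8 alternatives other than ratios as deposited, and 1 member, Etfdh, was 2-fold lower in each. As deposited, the members' median was -0.13 and 0 members were 2-fold lower; for the other mitochondrial oxidation genes the median was -0.37, with 0 lower and 1 higher. These values differ from the centred ones by the 0.44 taken off every ratio. With the mean of probe sets in place of the brightest, 2 of those genes, in place of 1, were 2-fold lower at day 3. At day 1 the count of those genes that were 2-fold lower was 6, in place of 7, with the filter at the 60th percentile and when centred on all probe sets. Their medians and the members' medians kept their sign under all 9 alternatives. At day 1 the medians, as deposited, of the PPAR targets, regulators, tricarboxylic acid cycle, oxidative phosphorylation and fatty acid synthesis lists were above 0. The dim Hadha probe set of day 3, Ppara and Ppargc1a at day 1 were limited by signal over background.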

Other observations

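Of the genes in the fatty acid oxidation, ketone body, PPAR target and regulator lists, 7 were measured on both days, and the days share no array. Of these 7, 6 had the same sign of the relative log2 ratio on both days, against 71.6% of all 1246 genes measured on both. Gcdh was at -0.80 at day 1 and -0.79 at day 3. Phyh, the peroxisomal phytanoyl-CoA hydroxylase gene, was at -0.90 and -0.64, with day 3 signals of 1758 in saline and 1207 in 3-NP. Acat1, the mitochondrial acetoacetyl-CoA thiolase gene, was at -0.83 and -0.27, and Ncor1, a nuclear receptor corepressor gene, at -0.37 and -0.65. Above the median gene on both days were Pdk4, at 0.68 and 0.76, and Acsl5, at 0.85 and 0.09. The probe sets differ between the designs.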
